A study of Ambystoma mexicanum with 12 samples.

Results

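The Wnt, FGF, Notch, Hedgehog and bone morphogenetic protein (BMP) signalling genes described here were chosen by symbol. They are the ligands, receptors, secreted antagonists and targets of 5 pathways, and a gene was a member if its symbol in the array's annotation matched a family name such as WNT, FZD, SFRP, FGF, BMP, JAG or HES. The names matched 54 genes on 68 probe sets, of 8639 genes with a symbol and 20035 probe sets tested. No measured value entered the choice, although results of these data were known when it was made. Of the 54 genes, 18 belong to the Wnt pathway, 13 to the FGF pathway, 10 to the Notch pathway, 4 to the Hedgehog pathway and 9 carry BMP or follistatin-like names.

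The study sampled the skin of adult white axolotls with full-thickness punch biopsies of 2 mm and hybridised the RNA to 12 Affymetrix arrays made for axolotl transcripts. There were 4 groups of n = 3 arrays, namely uninjured skin and 3 stages of healing, 2, 14 and 21 days after the injury (dpi), and no group carried a transgene or a drug according to the sample titles. The methods name 3 separate adult males of 2 years, and do not state if a given male was sampled more than once. The submitters' treatment text instead describes spinal cord surgery with ivermectin in animals of 2 to 3 cm, with 10 animals pooled per array, and the description of the 14 dpi arrays names day 7 where their titles name day 14. It is therefore unknown if arrays carry RNA of single animals or of pools, and the spread given below is the spread between arrays, which may be partly technical.

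These pathways carry signals between neighbouring cells. Wnt ligands bind Frizzled receptors with an LRP5 or LRP6 co-receptor, and secreted Frizzled-related proteins (SFRP) and Dickkopf proteins (DKK) act outside the cell to modulate them. FGF ligands bind receptor tyrosine kinases, BMP ligands bind paired type I and type II receptor kinases, Hedgehog ligands bind Patched, and Notch receptors are switched on by Delta and Jagged ligands on the next cell, after which HES and HEY genes are transcribed. In skin, these pathways are known for their part in epidermal renewal, appendage growth and dermal repair, and in salamanders for their part in limb regrowth.

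A level is a log2 value after robust multi-array average (RMA) normalisation. A change is a difference of group means on that scale with its standard error (SE). Levels of different probe sets were compared only in the choice of a gene's brightest probe set. The 12 arrays had medians between 5.52 and 5.61 and lower quartiles between 4.04 and 4.11, so a level near 4 is among the dimmest probe sets. Correlations between arrays ran from 0.924 to 0.994. The 14 dpi replicate 2 array was closest to 21 dpi replicate 1 (r = 0.992) and not to its own group, and the calls of members at 14 dpi are given with and without it. Its mean correlation with its own group was 0.9745, and that of uninjured replicate 3 was 0.9747, the lowest of the 12 arrays. All comparisons with uninjured skin use uninjured replicate 3. Without that array 2725 of all probe sets passed at 2 dpi in place of 1859. Of the epidermal markers, COL17A1 and DSP had mean levels of 10.99 and 11.98 in uninjured skin and TP63 of 6.89. Markers of the dermis were bright in uninjured skin too, with mean levels of 11.55 for LUM and 11.88 for DPT, but PDGFRA, PDGFRB and PRRX1 had means of 4.60, 3.99 and 4.02.

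At 2 dpi, 6 of the 54 members passed the test against uninjured skin (limma, Benjamini-Hochberg adjusted p under 0.05), which is 11.1% beside 9.28% of all probe sets. The Notch ligand JAG1 and the BMP type II receptor BMPR2 rose, a count of 2 beside 5.42% of all probe sets, and the Wnt antagonists SFRP2 and SFRP5, the procollagen protease BMP1 and the follistatin-like glycoprotein FSTL1 fell, a count of 4 beside 3.86%. At 14 dpi 4 members rose (7.41%), namely DKK3, SFRP4, FSTL1 and JAG1. Of all probe sets 4.56% rose and 7.12% were called in either direction. At 21 dpi 7 members rose (13%), namely the same 4 with BMP1, FGF2 and WNT2B, where 6.62% of all probe sets rose and 12.6% were called in either direction. In limma 0 members fell at 14 dpi (2.56% of all probe sets did) and 0 at 21 dpi (5.99% did), with 3 and 2 of them lower at an unadjusted p under 0.05, beside 9.91% and 13.4% of all probe sets. The shares called in either direction were thus close to those of all probe sets at each time. The shares that rose at 14 and 21 dpi, 7.41% and 13%, were above the 4.56% and 6.62% of all probe sets. The median change over the members was -0.05, 0.00 and 0.12 at 2, 14 and 21 dpi, beside 0.02, 0.01 and -0.01 over all probe sets. The 3 comparisons share the uninjured arrays. Here and below, members are counted on each gene's brightest probe set. Brightness was the mean over all 12 arrays, wounds included, so the choice is not independent of the changes. The shares of all probe sets are over all 20035, of which 9084 have no symbol, so the 2 are not matched in level.

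Between wounds, 10 members differed between 14 and 2 dpi (18.5%, beside 7.54% of all probe sets) and 17 between 21 and 2 dpi (31.5%, beside 21.8%). Of the 10, 7 were higher at 14 dpi and 3 were lower, where 3.92% and 3.62% of all probe sets were. Of the 17, 13 were higher at 21 dpi (9.39% of all probe sets were) and 4 were lower (12.4% of all probe sets were). Between 21 and 14 dpi 0 members passed in limma (0.17% of all probe sets did, 0.0998% higher and 0.0699% lower). By an unadjusted p below 0.05, 7 members were higher and 2 lower there, beside 4.27% and 5.91% of all probe sets. Without 14 dpi replicate 2, 471 of all probe sets passed there. Among them were 2 members, DKK3 with a change of 1.28 (adjusted p = 0.0178) and BMP1 with a change of 1.12 (adjusted p = 0.035). By the F-test over the 3 wound times 16 members passed (29.6% beside 21.5%). Over all 6 comparisons 18 members passed at least once, where 29.5% of all probe sets did. Of the 18, 12 had a change of at least 2-fold, a threshold at which all probe sets were not counted, so the 12 have no share to be read beside.

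The calls at 14 dpi were also made without 14 dpi replicate 2. Over all probe sets 907 then passed against uninjured skin in place of 1427, and 777 against 2 dpi in place of 1510. The 4 rises over uninjured skin then were 2.65 for DKK3 (adjusted p = 0.000353), 2.71 for SFRP4 (adjusted p = 0.000413), 1.05 for FSTL1 (adjusted p = 0.0151) and 1.23 for JAG1 (adjusted p = 0.00514), and all passed. Of the 10 members that differed between 14 and 2 dpi, 8 passed without it and FZD2 and FZD8 did not. Among the 8, SFRP4 was higher by 2.80, DKK3 by 2.16, FSTL1 by 1.92, BMP1 by 1.07 and SFRP5 by 1.02, and the changes of BMPR2 and JAG2 were -0.88 and -1.19. The value of SFRP2 stands beside its levels.

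**Figure D1:**
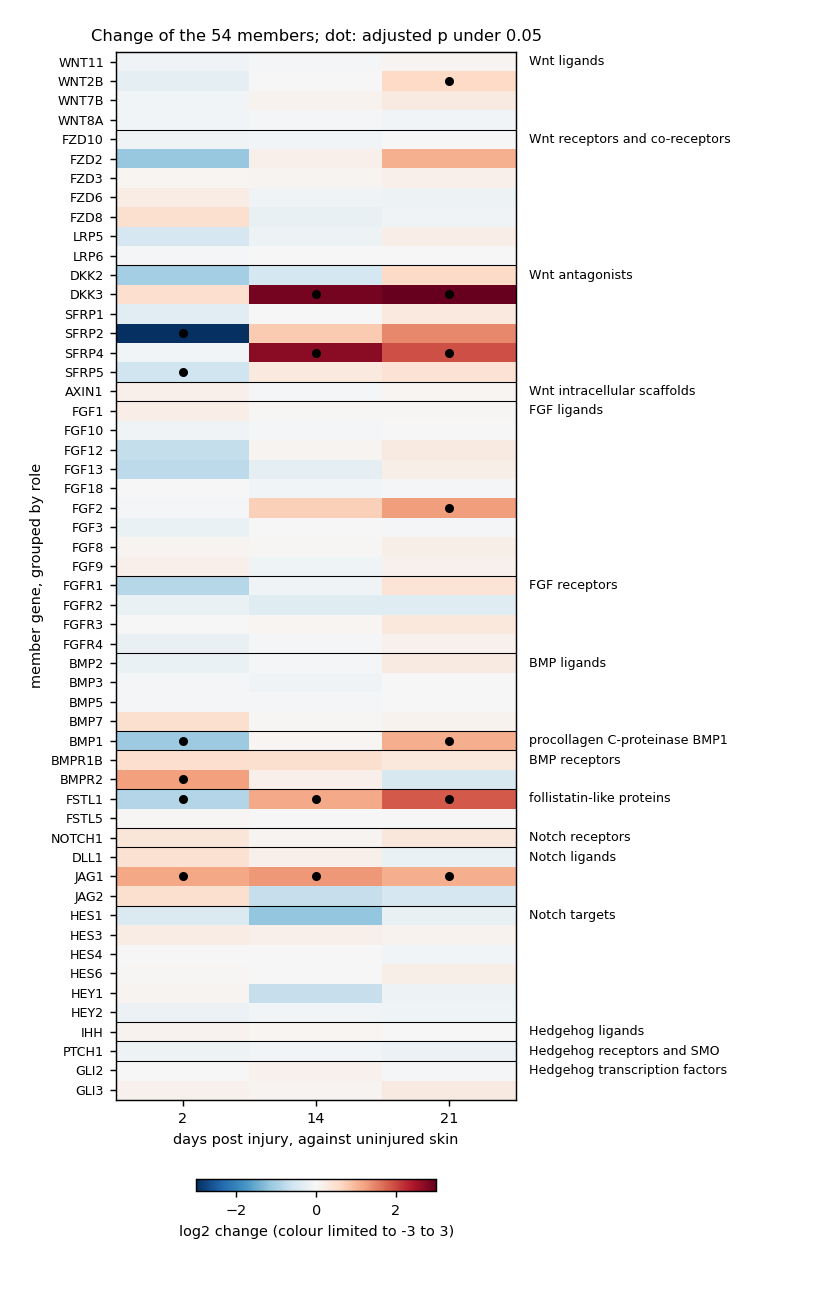
Change in log2 level of all 54 members, by role, in wounds at 2, 14 and 21 dpi against uninjured skin (n = 3 arrays per group); colour gives the change, limited to -3 to 3, and a dot marks a limma adjusted p under 0.05. Dots fall on 6, 4 and 7 members, most of the strongest colours are in the Wnt antagonists, and DKK3 (3.93 at 21 dpi) and SFRP2 (-5.60 at 2 dpi) lie beyond the colour range.

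The Wnt antagonists held the largest changes, and 5 of the 6 members of that role passed as higher at 21 than at 2 dpi. Of all probe sets 9.39% did. The lowest change among the 6 was 0.62, so DKK2 was higher too but did not pass. Their median change from uninjured skin was -0.47 at 2 dpi, 0.55 at 14 dpi and 1.02 at 21 dpi. SFRP2, a secreted protein of fibroblasts that binds Wnt ligands, had levels of 9.98, 10.45 and 9.46 in uninjured skin and 5.19, 3.71 and 4.21 at 2 dpi. The 14 dpi arrays read 10.20, 11.68 and 10.39 and the 21 dpi arrays 11.90, 10.95 and 11.38. All 3 early wounds lay far below every other array, near the lower quartile, while the 14 dpi wounds overlapped with uninjured skin. At 2 dpi SFRP2 fell by 5.60 on the log2 scale (SE 0.47, adjusted p = 0.000161). The 2 dpi levels were near the dim end, and 1 of the 3 lay below its array's lower quartile. With that level raised to the quartile, the mean of SFRP2 was 44.8-fold lower than in uninjured skin. This is an estimate from 3 arrays per group and not a lower limit. From 2 dpi to 14 dpi SFRP2 was higher by 6.39 (adjusted p = 9.29e-05), and by 5.92 (adjusted p = 0.00025) without 14 dpi replicate 2. At 21 dpi its level was 1.45 above uninjured skin, which missed the threshold (adjusted p = 0.0725, 95% interval 0.41 to 2.49) and passed it without 14 dpi replicate 2 (adjusted p = 0.0342).

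A second SFRP2 probe set moved far less. Its mean levels were 7.91 in uninjured skin and 7.04, 8.57 and 8.99 at 2, 14 and 21 dpi. Its change of -0.88 at 2 dpi missed the threshold (adjusted p = 0.0796) and its rise of 1.07 at 21 dpi passed it (adjusted p = 0.0302). Both probe sets were higher at 21 than at 2 dpi, by 7.04 and by 1.95, so they shared the direction and not the size.

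DKK3, a divergent Dickkopf protein, was placed among the Wnt antagonists by its name, and its action on Wnt signalling was not tested. DKK3 rose late. Its levels were 4.97, 4.36 and 4.87 in uninjured skin and 5.26, 5.31 and 5.10 at 2 dpi. They were 7.43, 8.04 and 7.33 at 14 dpi and 8.97, 8.41 and 8.60 at 21 dpi. The later wounds lay above every uninjured and 2 dpi array, and the 21 dpi arrays above the 14 dpi arrays. The rise over uninjured skin was 2.87 (SE 0.22, adjusted p = 0.000114) at 14 dpi and 3.93 (SE 0.22, adjusted p = 1.64e-05), or 15.2-fold, at 21 dpi. A second DKK3 probe set had mean levels between 5.21 and 5.46 in the 4 groups and passed in no comparison with uninjured skin, so the rise rests on 1 probe set. In uninjured skin that second probe set was the brighter one, at 5.21, 5.10 and 5.38. The rising probe set was thus chosen through the later wounds in which it is high, and its calls are not independent of that choice.

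SFRP4, another secreted Frizzled-related protein, passed against uninjured skin at 14 and 21 dpi and not at 2 dpi. It read 5.47, 5.47 and 5.10 in uninjured skin and 4.74, 5.54 and 5.49 at 2 dpi, and those groups overlapped. At 14 dpi the 3 arrays read 8.07, 8.08 and 8.04, and at 21 dpi they read 7.52, 7.12 and 7.19. The rises were 2.72 (SE 0.20, adjusted p = 0.000114) and 1.94 (SE 0.20, adjusted p = 0.000604). The 14 dpi arrays lay above the 21 dpi arrays, but that difference of -0.78 did not pass (adjusted p = 0.193).

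SFRP5, of the same family, had levels of 4.62, 4.78 and 4.90 in uninjured skin, 4.11, 4.33 and 4.04 at 2 dpi, 4.98, 4.85 and 5.38 at 14 dpi and 5.14, 5.07 and 5.41 at 21 dpi. The 2 dpi arrays lay below all others. SFRP5 fell by 0.61 at 2 dpi (SE 0.15, adjusted p = 0.0343), which no longer passed when any of the 6 uninjured and 2 dpi arrays was left out, with changes from -0.69 to -0.54 and adjusted p from 0.0511 to 0.106. SFRP5 was higher at 21 than at 2 dpi by 1.05 (adjusted p = 0.0012). SFRP1 was higher at 21 than at 2 dpi by 0.62 (SE 0.11, adjusted p = 0.00273), and without 14 dpi replicate 1 it also passed at 2 dpi (-0.34, adjusted p = 0.0432) and between 14 and 2 dpi (0.45, adjusted p = 0.0253). DKK2, an antagonist that binds LRP co-receptors, varied most between arrays, from 5.87 to 8.40 in uninjured skin and from 4.90 to 7.46 at 2 dpi, and passed in none of the 6 comparisons.

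**Figure D2:**
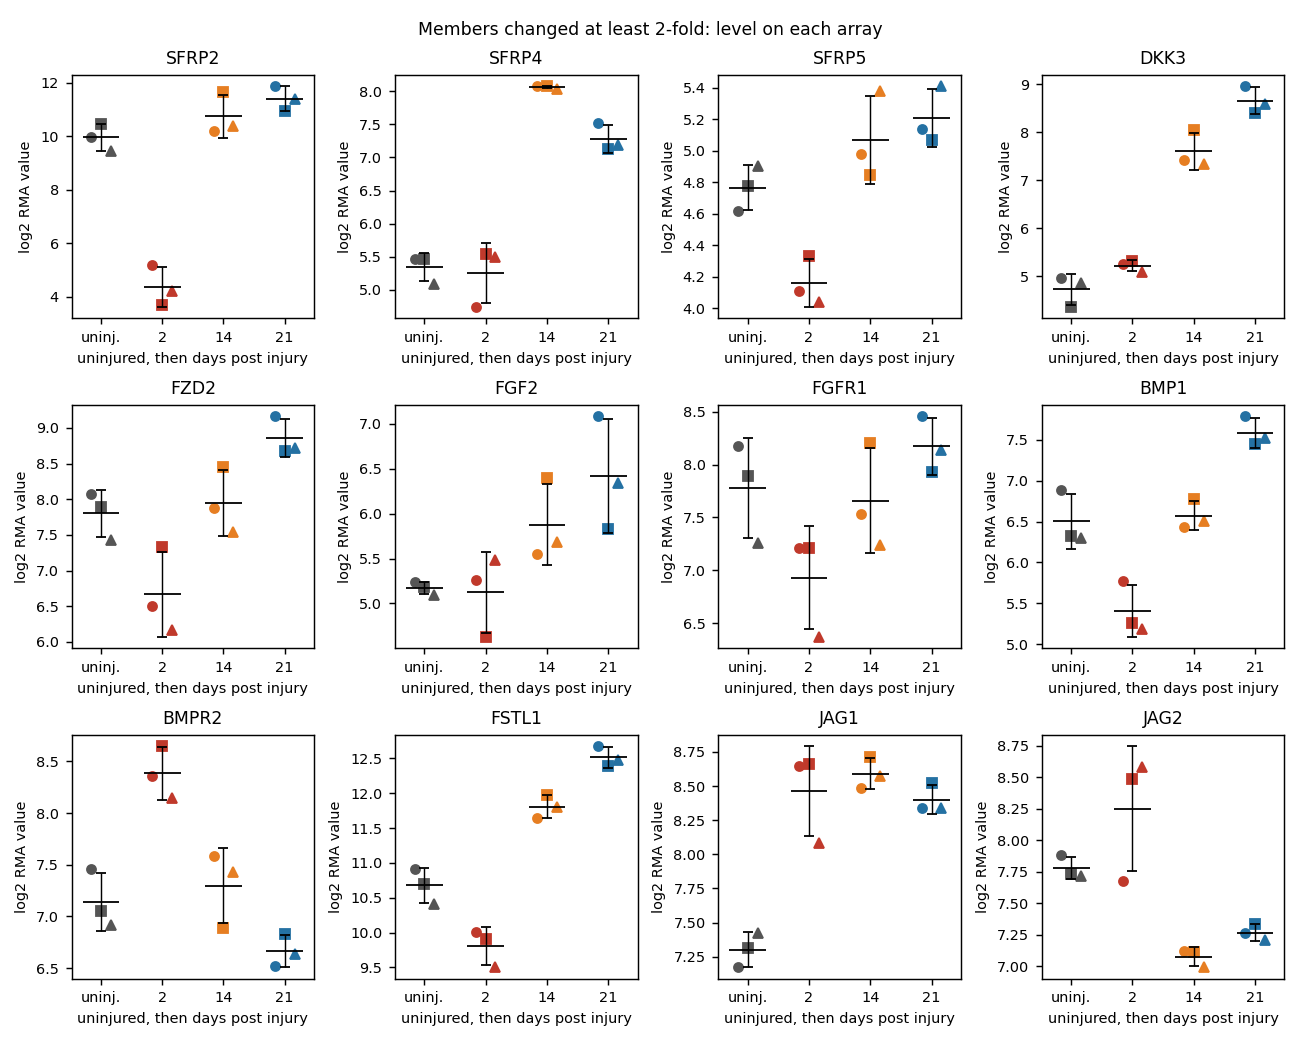
Level (log2 RMA value) on each array of the 12 members that passed with at least 2-fold in some comparison. Circles, squares and triangles are replicates 1, 2 and 3, numbers that are not known to pair arrays across groups. Bars are the mean and SD of 3 arrays, on an axis of its own for each gene. SFRP2 is lowest on the 3 arrays of 2 dpi, DKK3 and FSTL1 are highest at 21 dpi, SFRP4 at 14 dpi, and JAG1 is above uninjured skin on all 9 wound arrays.

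Of the 4 Wnt ligands, WNT2B passed against uninjured skin. Its levels were 3.90, 3.94 and 3.64 in uninjured skin and 4.37, 4.69 and 4.21 at 21 dpi. The groups did not overlap, with a rise of 0.60 (SE 0.15, adjusted p = 0.0291) at a level near the lower quartile. The call was lost without any 1 of the 3 uninjured arrays, 21 dpi replicate 1 or 21 dpi replicate 2, with changes of 0.46 to 0.65 and adjusted p of 0.0577 to 0.0945. WNT7B, WNT8A and WNT11 had group means between 3.29 and 4.13 and did not pass.

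Among the 7 Wnt receptors and co-receptors, 0 passed against uninjured skin at any time in limma, with 4 of them past an unadjusted p of 0.05 at 2 dpi, 0 at 14 dpi and 1 at 21 dpi, where 24%, 21.8% and 26.5% of all probe sets were. FZD2, a Frizzled receptor, read 8.07, 7.90 and 7.43 in uninjured skin and 6.50, 7.33 and 6.16 at 2 dpi. It read 7.87, 8.45 and 7.53 at 14 dpi and 9.17, 8.68 and 8.72 at 21 dpi. The 2 dpi arrays were the lowest and the 21 dpi arrays the highest, and the step between them of 2.19 (SE 0.32, adjusted p = 0.00114, or 4.57-fold) passed. Its changes from uninjured skin, -1.13 at 2 dpi and 1.06 at 21 dpi, lay just outside the threshold (adjusted p = 0.0511 and 0.0553) and passed without 14 dpi replicate 2 (adjusted p = 0.0361 and 0.0377) and without 2 dpi replicate 2 (-1.47, adjusted p = 0.0231, and 1.06, adjusted p = 0.0285). The first also passed without uninjured replicate 3 (-1.32, adjusted p = 0.0352) and the second without 2 dpi replicate 3 (adjusted p = 0.0444). The step of 1.29 from 2 to 14 dpi passed (adjusted p = 0.0357), but not without uninjured replicate 2, 2 dpi replicate 1 or 3, 14 dpi replicate 1 or 2, or 21 dpi replicate 2 or 3, where it was 1.04 to 1.33 (adjusted p of 0.0504 to 0.13). The second FZD2 probe set had group means between 3.34 and 3.53.

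The co-receptor LRP5 was higher at 21 than at 2 dpi by 0.70 (SE 0.14, adjusted p = 0.00638), with levels of 7.45, 7.18 and 7.12 against 6.78, 6.49 and 6.37. Its change of -0.50 at 2 dpi (adjusted p = 0.0536) passed without 2 dpi replicate 1 (-0.62, adjusted p = 0.0332), 14 dpi replicate 1 (adjusted p = 0.048) or 14 dpi replicate 2 (adjusted p = 0.0413). FZD6 and FZD8 were lower at 21 than at 2 dpi, with changes of -0.38 (adjusted p = 0.0124) and -0.57 (adjusted p = 0.0275). FZD8 was also lower at 14 than at 2 dpi (-0.69, adjusted p = 0.0271). FZD8 lost the first call without 2 dpi replicate 1 or 3 or 21 dpi replicate 2 or 3 (changes of -0.59 to -0.48, adjusted p of 0.0707 to 0.089), and the second without 2 dpi replicate 1 or 3 or 14 dpi replicate 1 or 2 (changes of -0.67 to -0.60, adjusted p of 0.0686 to 0.0879). With an array left out, calls were gained by FZD8 at 2 dpi without uninjured replicate 1 (0.63, adjusted p = 0.0402) and FZD6 between 14 and 2 dpi without 2 dpi replicate 1 (-0.41, adjusted p = 0.0241). FZD6 lay below the lower quartile on all 12 arrays. LRP6, FZD3, FZD10 and the scaffold AXIN1 did not pass, and the means of LRP6 ran from 5.32 to 5.35.

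Of the 13 FGF members, FGF2 was the sole one that passed against uninjured skin, at 21 dpi, and 3 were higher at 21 than at 2 dpi (23.1% beside 21.8% of all probe sets), namely FGF2, FGFR1 and FGF12. FGF2, a heparin-binding ligand known as a mitogen of fibroblasts and endothelium, read 5.24, 5.18 and 5.10 in uninjured skin and 5.26, 4.62 and 5.49 at 2 dpi. It read 5.55, 6.39 and 5.69 at 14 dpi and 7.09, 5.83 and 6.34 at 21 dpi. All later wounds lay above all earlier arrays, and the rise at 21 dpi was 1.25 (SE 0.33, adjusted p = 0.0323, or 2.38-fold). It missed the threshold without any of the 3 uninjured arrays, without 21 dpi replicate 3 and without 21 dpi replicate 1, which lowered the change to 0.91 (adjusted p = 0.106); over these 5 the adjusted p was 0.0668 to 0.106. Against 2 dpi the step of 1.30 (adjusted p = 0.0178) was 0.96 (adjusted p = 0.0626) without 21 dpi replicate 1 and 1.05 (adjusted p = 0.0698) without 2 dpi replicate 2. With the mean level of epidermal markers as a covariate that step was -0.017 (adjusted p = 0.99), and with that of muscle markers it was 0.74 (adjusted p = 0.392).

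FGFR1, a receptor of FGF2, was higher at 21 dpi than at 2 dpi by 1.24 (SE 0.32, adjusted p = 0.0201). Its levels were 8.18, 7.89 and 7.26 in uninjured skin, 7.21, 7.21 and 6.37 at 2 dpi, 7.53, 8.21 and 7.24 at 14 dpi and 8.46, 7.93 and 8.14 at 21 dpi. The 21 and 2 dpi arrays did not overlap, while 21 dpi overlapped with uninjured skin. The call was lost without 2 dpi replicate 3 (0.96, adjusted p = 0.0691), 21 dpi replicate 1 (1.10, adjusted p = 0.0778) or 21 dpi replicate 3 (1.26, adjusted p = 0.0578). A second FGFR1 probe set, below the lower quartile on all 12 arrays, differed by 0.24 between 21 and 2 dpi and did not pass (adjusted p = 0.167). FGF12, which with FGF13 is an intracellular homologous factor and not a secreted ligand, passed between the same times (0.98, adjusted p = 0.0422) and lost that call without uninjured replicate 1 or 2, any of the 2 dpi arrays, 14 dpi replicate 3, or 21 dpi replicate 1 or 3 (changes of 0.64 to 1.10, adjusted p of 0.0512 to 0.141); the lowest change was without 21 dpi replicate 1. With the muscle and the epidermal covariate the step was 0.33 and 0.55 for FGFR1 and 0.55 and 0.04 for FGF12, and neither gene passed. FGF10 and FGF8, ligands of limb outgrowth, had group means of 4.27 to 4.37 and of 3.71 to 3.88, and passed in no comparison. FGF3, FGF8, FGF9 and FGF18 lay below the lower quartile on all 12 arrays.

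Among the genes with BMP names, the 4 ligands BMP2, BMP3, BMP5 and BMP7 passed in none of the 6 comparisons in limma, and 2 of them, BMP2 and BMP7, had an unadjusted p under 0.05 in some comparison, which 52.4% of all probe sets had. BMP7 came nearest, with a change of 0.48 at 2 dpi (adjusted p = 0.0624). BMPR2, the type II receptor, read 7.46, 7.06 and 6.92 in uninjured skin and 8.36, 8.65 and 8.14 at 2 dpi. It read 7.58, 6.89 and 7.43 at 14 dpi and 6.52, 6.83 and 6.64 at 21 dpi. The 2 dpi arrays lay above all others, by 1.24 over uninjured skin (SE 0.21, adjusted p = 0.00537), and the 21 dpi arrays below all others. From 2 to 21 dpi BMPR2 changed by -1.72 (adjusted p = 0.000418). Of 3 further BMPR2 probe sets, those with changes of 0.92 and 1.23 at 2 dpi passed (adjusted p = 0.00554 and 0.00101) and the other, at -0.01, did not. The 2 that passed were dim, below the lower quartile on 10 and 7 of the 12 arrays, and the other was below it on 0. BMPR1B, a type I receptor, read 6.39 to 7.53 in uninjured skin and 6.85 to 7.88 at 2 dpi and did not pass.

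BMP1 is a metalloprotease that trims procollagens and is named for its copurification with the ligands. It read 6.89, 6.32 and 6.30 in uninjured skin and 5.77, 5.26 and 5.18 at 2 dpi. It read 6.44, 6.77 and 6.50 at 14 dpi and 7.79, 7.44 and 7.53 at 21 dpi. The 2 dpi and 21 dpi arrays lay below and above all uninjured arrays, with a change of -1.10 (SE 0.20, adjusted p = 0.00816) and a rise of 1.09 (SE 0.20, adjusted p = 0.00742). Of 2 other BMP1 probe sets, both rose at 21 dpi (by 1.45, adjusted p = 8.85e-05, and by 0.67, adjusted p = 0.0124), and the first had already risen at 14 dpi (0.83, adjusted p = 0.00188, and 0.81, adjusted p = 0.00736, without 14 dpi replicate 2). Neither passed at 2 dpi, where the first changed by -0.24 (unadjusted p = 0.0448, adjusted p = 0.195) with its 2 dpi arrays below its uninjured arrays, and the second by -0.08. The fall at 2 dpi thus passed on 1 of 3 probe sets.

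FSTL1, a secreted glycoprotein that in mammals can bind BMP ligands, read 10.92, 10.70 and 10.41 in uninjured skin and 10.02, 9.91 and 9.50 at 2 dpi. It read 11.64, 11.98 and 11.80 at 14 dpi and 12.68, 12.39 and 12.48 at 21 dpi. No groups overlapped. It passed against uninjured skin at all 3 times, with a change of -0.87 (SE 0.17, adjusted p = 0.0106), then rises of 1.13 (adjusted p = 0.00387) and 1.84 (adjusted p = 0.000326, or 3.58-fold). FSTL5 stayed below the lower quartile on all 12 arrays. FSTL1 and JAG1 were the 2 members that passed against uninjured skin at all 3 times.

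JAG1, a ligand of Notch receptors, rose by a similar amount at each time. It read 7.17, 7.31 and 7.42 in uninjured skin and 8.65, 8.66 and 8.09 at 2 dpi. It read 8.49, 8.71 and 8.58 at 14 dpi and 8.34, 8.52 and 8.34 at 21 dpi. All 9 wound arrays lay above the 3 uninjured arrays. The rises were 1.16 (SE 0.15, adjusted p = 0.00154), 1.29 (adjusted p = 0.00113) and 1.10 (adjusted p = 0.00218), and the wound times did not pass against each other, with a 21 minus 2 dpi difference of -0.07 (95% interval -0.40 to 0.27).

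JAG2, the other Jagged ligand, had levels of 7.88, 7.74 and 7.72 in uninjured skin and of 7.68, 8.49 and 8.59 at 2 dpi. It had 7.12, 7.12 and 6.99 at 14 dpi and 7.26, 7.34 and 7.21 at 21 dpi. The later wounds lay below all uninjured arrays, but the changes of -0.70 and -0.51 missed the threshold (adjusted p = 0.0566 and 0.121), and passed without 2 dpi replicate 1, which read close to uninjured skin (adjusted p = 0.00226 and 0.00718). Without that array the change at 2 dpi also passed (0.76, adjusted p = 0.00214), and without 2 dpi replicate 3 the change at 14 dpi did (adjusted p = 0.0419). It was lower at 14 and 21 dpi than at 2 dpi, with changes of -1.17 (adjusted p = 0.00592) and -0.98 (adjusted p = 0.00574). NOTCH1 and the Delta ligand DLL1 passed in none of the comparisons.

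Of the 6 Notch targets 0 passed in limma in any of the 6 comparisons, where 29.5% of all probe sets did. HES1, HES3 and HEY1, 3 of the 6, had an unadjusted p under 0.05 in some comparison, beside 52.4% of all probe sets. HES1, a transcriptional repressor that Notch signalling induces, read 7.75, 8.05 and 9.25 in uninjured skin and 7.15, 7.16 and 7.24 at 14 dpi. All 14 dpi arrays lay below the uninjured ones, yet uninjured replicate 3 was well above the other two and the change of -1.17 (SE 0.43, 95% interval -2.12 to -0.21) did not pass (adjusted p = 0.138). HEY1 had a change of -0.69 at 14 dpi (adjusted p = 0.172). It passed there, and between 14 and 2 dpi, with the epidermal covariate. HES3, HES4, HES6 and HEY2 had group means between 2.91 and 4.49.

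Of the 4 Hedgehog members 0 passed in any comparison in limma, and 0 had an unadjusted p under 0.05. Of all probe sets 29.5% and 52.4% did. IHH, a ligand, had group means of 4.83 to 4.94, the receptor PTCH1 of 3.06 to 3.24, and the transcription factors GLI2 and GLI3 of 3.63 to 3.83 and of 4.83 to 5.09. PTCH1 and GLI2 lay below the lower quartile on all 12 arrays. Of the 36 members that passed in no comparison, 31 had mean changes from uninjured skin under 0.5 at every time and 5 had at least 1 above that, led by HES1, DKK2 and FGF13 (-0.78 at 2 dpi). Of the 13 members below the lower quartile on all arrays FZD6 was the sole one called in some comparison, where 3.14% of all such probe sets were, and of the 13 members above the median on all arrays 7 were called, where 43.2% of all such probe sets were.

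**Figure D3:**
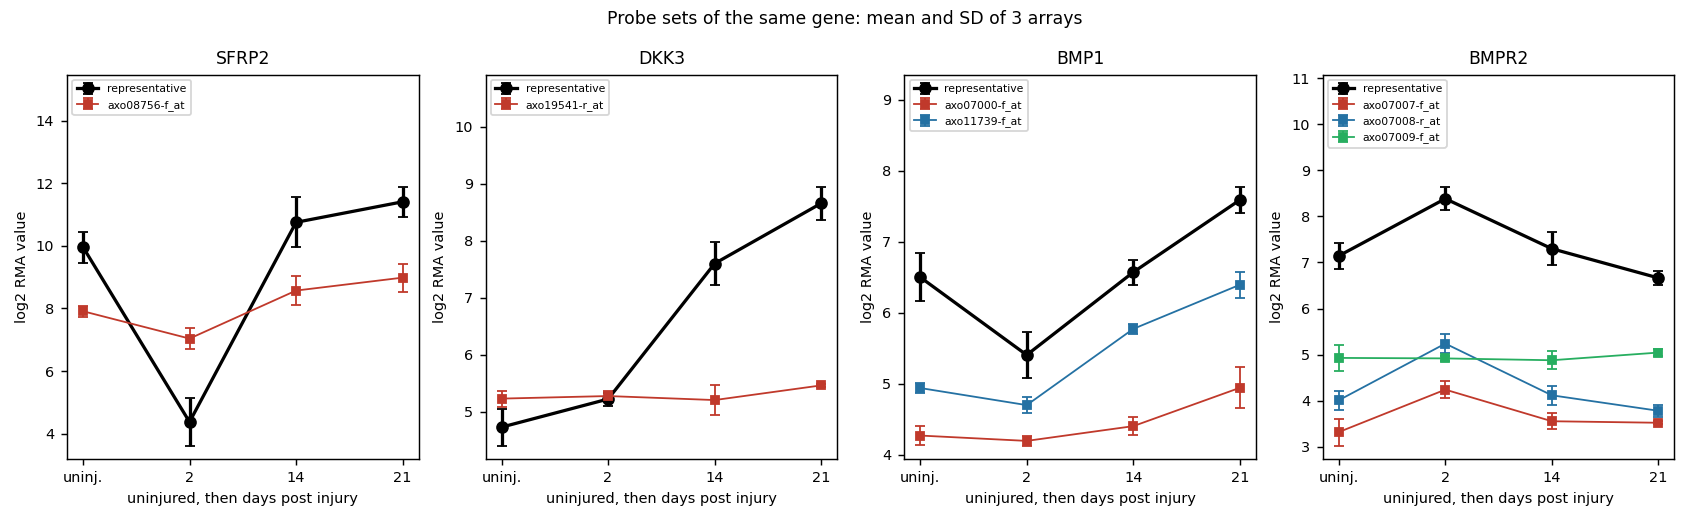
Mean level and SD (log2 RMA value, n = 3 arrays) of the representative probe set (black) and every other probe set of SFRP2, DKK3, BMP1 and BMPR2, in uninjured skin and at 2, 14 and 21 dpi. The fall of SFRP2 at 2 dpi is -5.60 on one probe set and -0.88 on the other, and the DKK3 rise appears on 1 of 2.

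Other genes of the 5 pathways were taken from lists, whose shares called are to be read beside the 9.28%, 7.12% and 12.6% of all probe sets at 2, 14 and 21 dpi. In the Wnt list 39 of 66 genes were measured, of which 3 rose and 1 fell at 2 dpi, 4 rose and 0 fell at 14 dpi, and 4 rose and 1 fell at 21 dpi (10.3%, 10.3% and 12.8%). PRICKLE1, of planar polarity signalling, fell by 1.20 at 2 dpi and rose by 1.46 and 1.47 later. CTNNB1, beta-catenin, rose by 0.53 at 2 dpi, GSK3B, its kinase, by 0.84, and ROR2, a Wnt5a receptor in mammals, by 0.96 at 14 dpi and 1.04 at 21 dpi. The rise of ROR2 at 14 dpi was 0.72 without 14 dpi replicate 2 and did not pass (adjusted p = 0.117). In the FGF list 26 of 48 were measured, and 2 rose at 2 dpi, GAB1 by 1.05 and FRS2 by 0.44, both adaptors downstream of FGF receptors. FGFBP1, a carrier that releases FGFs from the matrix, fell by 2.46 at 14 dpi and by 3.71 at 21 dpi, and 1 gene rose and 2 fell at 14 dpi and 0 rose and 1 fell at 21 dpi (7.69%, 11.5% and 3.85% at the 3 times).

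In the Notch list 25 of 41 were measured. ADAM10, which cleaves Notch, rose by 0.54 at 2 dpi and by 0.53 at 14 dpi, and APH1A, a subunit of gamma-secretase, by 0.56 and 0.53 at 14 and 21 dpi. The list had 1 gene higher and 1 lower at 2 dpi, 3 and 0 at 14 dpi and 3 and 1 at 21 dpi (8%, 12% and 16%). SPEN, a corepressor of Notch targets, fell at 21 dpi (-1.19). In the Hedgehog list 23 of 33 were measured and 0 passed at any time in limma, with 3, 0 and 1 past an unadjusted p of 0.05, a measure that 24%, 21.8% and 26.5% of all probe sets passed. EVC2, a ciliary protein of the pathway, was higher at 21 than at 2 dpi by 1.84. In the BMP list 31 of 54 were measured, and 3 rose and 2 fell at 2 dpi, 4 and 1 at 14 dpi, and 3 and 1 at 21 dpi (16.1%, 16.1% and 12.9%). Without 14 dpi replicate 2, the rises at 14 dpi numbered 3 in the Wnt list, 2 in the Notch list and 2 in the BMP list, with ROR2, TLE3, DTX2, CHRD and SMAD4 lost and DAAM1 gained. TLL1, a protease related to BMP1, rose by 0.97, 2.53 and 2.07 at the 3 times, SPARC, a matrix glycoprotein, by 1.66 and 1.99 at 14 and 21 dpi, ID2, a BMP-induced inhibitor of transcription factors, had changes of -1.62 and -1.55 at those times, and FBN1, a microfibril protein, fell by 5.20 at 2 dpi.

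Marker levels of several cell types differed between the groups, and those of others overlapped. The mean of 14 measured of 16 fibroblast and smooth muscle markers was 7.77 to 8.02 in uninjured skin, 5.27 to 5.95 at 2 dpi, 7.21 to 7.80 at 14 dpi and 7.94 to 8.16 at 21 dpi, so all 2 dpi arrays lay below all others, as the SFRP2 arrays did. The markers of that list differed at 2 dpi. LUM, DPT and ACTA2 had mean changes of -5.51, -5.01 and -4.74, and PDGFRA of -0.66 (adjusted p = 0.0257). The changes of DCN (-0.99, adjusted p = 0.0899), PRRX1 (-0.26, adjusted p = 0.0783), PDGFRB (-0.21, adjusted p = 0.27) and VIM (-0.10, adjusted p = 0.636) did not pass in limma. The 43 measured of 59 muscle markers had means of 9.29, 9.24 and 7.14 in uninjured replicates 1, 2 and 3. At 2 dpi they ranged from 5.42 to 7.38. Epidermal (suprabasal and wound) markers, 18 of 33 measured, were 9.75 to 9.84 in uninjured skin, 10.09 to 10.16 at 2 dpi and 9.02 to 9.54 at 21 dpi. The 8 measured of 15 basal keratinocyte markers were 6.07 to 6.28 in uninjured skin, 6.16 to 6.48 at 2 dpi and 6.14 to 6.33 at 21 dpi, so these groups overlapped. Endothelial markers, 15 of 24 measured, were 4.65 to 5.09 in uninjured skin and 4.09 to 4.21 at 2 dpi. They were 4.54 to 4.93 at 14 dpi and 4.94 to 5.07 at 21 dpi, so in this list too all 2 dpi arrays lay below all others. Macrophage and monocyte markers, 15 of 23 measured, were 8.15 to 8.34 in uninjured skin and 8.74 to 9.11 at 2 dpi. They were 9.35 to 9.52 at 14 dpi and 9.11 to 9.24 at 21 dpi. Of the 15, 5, 8 and 11 were called higher than in uninjured skin at 2, 14 and 21 dpi (33.3%, 53.3% and 73.3%). Of all probe sets 5.42%, 4.56% and 6.62% were. Neutrophil and granulocyte markers, 7 of 22 measured, were 7.24 to 7.37 in uninjured skin and 8.24 to 8.69 at 2 dpi. They were 7.74 to 8.20 at 14 dpi and 7.48 to 7.85 at 21 dpi. Of the 7, 57.1%, 42.9% and 14.3% were called higher at 2, 14 and 21 dpi. In the macrophage list and the neutrophil list alike, all 9 wound arrays lay above all uninjured arrays, as for JAG1. In the cell cycle list (16 of 20 measured) and the pigment cell list (5 of 14 measured) all 9 lay below. The uninjured arrays read 8.74 to 8.97 and 4.71 to 4.78 there, and the highest wound arrays 8.46 (2 dpi) and 4.45 (14 dpi). Erythrocyte markers, 7 of 24 measured, were 4.84 to 5.49 in uninjured skin and 5.21 to 6.10 at 2 dpi, so these groups overlapped. They were 5.24 to 5.98 at 14 dpi and 5.80 to 6.66 at 21 dpi. Nerve and Schwann cell markers, 13 of 21 measured, were 4.75 to 4.92 in uninjured skin and 4.43 to 4.58 at 2 dpi. They were 4.54 to 4.88 at 14 dpi and 4.67 to 5.12 at 21 dpi, so 2 and 14 dpi overlapped. The cell source of JAG1 was not tested. In bulk tissue fewer cells of a type and less RNA per cell cannot be told apart, and the part of these markers in the changes of the members was not tested. The fits below enter marker means that themselves differed between the groups, so they cannot separate marker level from time.

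When the muscle marker mean entered the fit as a covariate, 2 members passed at 2 dpi in place of 6, SFRP2 and JAG1. BMP1 (-0.60, adjusted p = 0.204), FSTL1 (-0.44, adjusted p = 0.258), BMPR2 (1.14, adjusted p = 0.113) and SFRP5 (-0.82, adjusted p = 0.0931) did not. Over all probe sets the calls at 2 dpi went from 1859 to 334. The same fit added SFRP2 at 14 dpi (1.46, adjusted p = 0.013) and 21 dpi (1.45, adjusted p = 0.00441), JAG2 at 14 dpi (-0.83, adjusted p = 0.0459) and FZD2 at 21 dpi (1.06, adjusted p = 0.0317). The calls over all probe sets there went from 1427 to 1312 at 14 dpi and from 2528 to 2939 at 21 dpi. The epidermal marker mean was taken over the basal keratinocyte and the suprabasal lists together. When it entered, DKK3, SFRP4, FSTL1 and JAG1 passed at 21 dpi, and BMP1 (0.92, adjusted p = 0.0628), FGF2 (0.56, adjusted p = 0.169) and WNT2B (0.54, adjusted p = 0.152) did not. At 2 dpi that fit lost FSTL1 (-0.75, adjusted p = 0.054) and added DKK3 (0.81, adjusted p = 0.0476). It called 994 of all probe sets at 21 dpi in place of 2528, and 1361 at 2 dpi in place of 1859. Between 21 and 2 dpi 7 of the 17 calls passed with the muscle covariate and 6 with the epidermal one. Over all probe sets 4369 calls became 925 and 458, so the losses were not particular to the members. FZD2, LRP5, FZD6, FZD8, SFRP1, WNT2B, FGF2, FGFR1, FGF12 and JAG2 passed there with neither covariate. Muscle markers and suprabasal markers did not overlap between 2 and 21 dpi, so a covariate can cost a call without a smaller change. With the muscle covariate the change of WNT2B was 0.85 in place of 0.87, while that of FGFR1 was 0.33 in place of 1.24. Of the 44 calls of a gene in a comparison, 21 passed at an adjusted p under 0.05 in every fit run. At the stricter thresholds in the fit of all arrays, all 21 had an adjusted p under 0.01 and 20 a change of at least 2-fold (not SFRP5 between 14 and 2 dpi). The 20 hold SFRP2 at 2 dpi, DKK3 and SFRP4 at 14 and 21 dpi, FSTL1 at 14 and 21 dpi, and JAG1 at all 3 times.

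**Figure D4:**
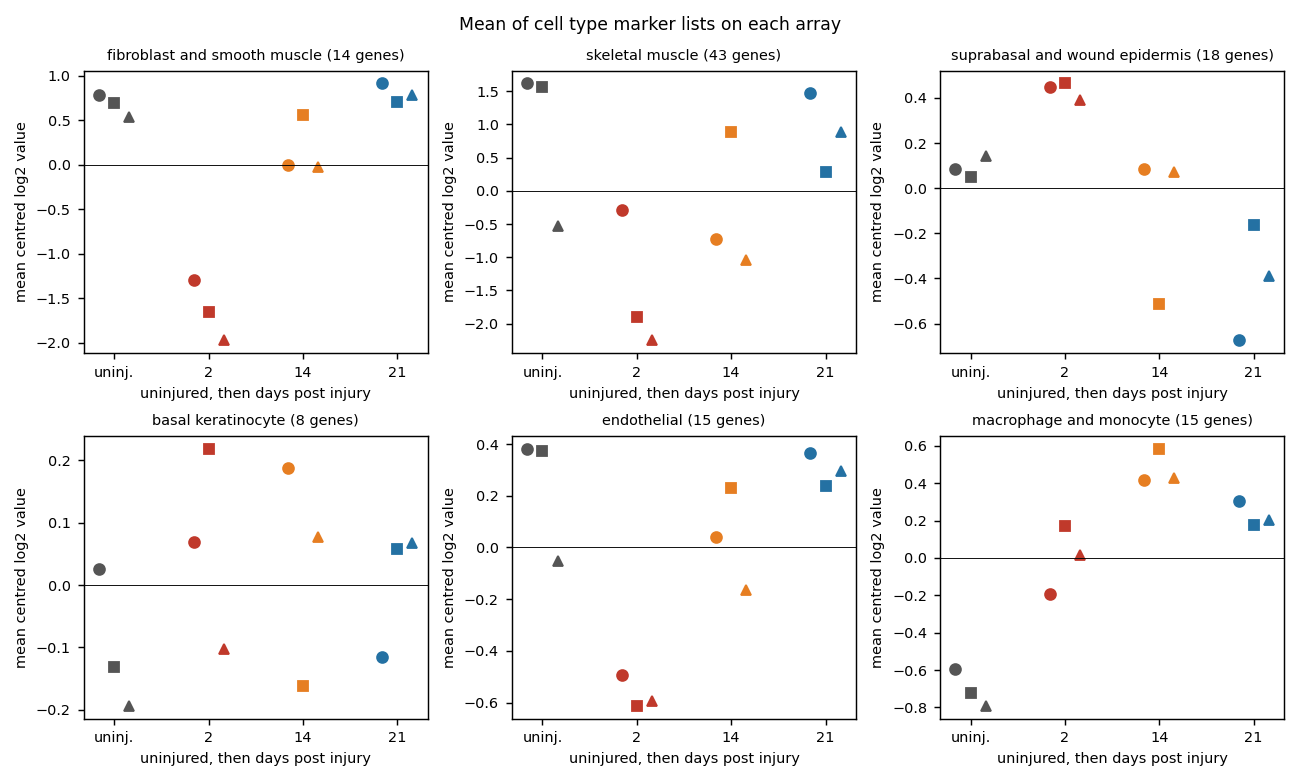
Mean over the measured genes of 6 cell type marker lists on each array, as log2 values centred on each gene's mean over 12 arrays, by group (circles, squares and triangles are replicates 1, 2 and 3). The fibroblast and smooth muscle list is lowest on the 3 arrays of 2 dpi, and the suprabasal epidermal list is highest there.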

How the data were processed

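RNA from skin biopsies was measured on 12 one-colour Affymetrix arrays, 3 per group. The values the authors deposited are log2 expression after robust multi-array average (RMA), 1 per probe set and array, and no further scaling was applied. The labels name Affymetrix Expression Console, whose version is not given in the sources used here. Signals from before that step were not analysed here.

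Of 20080 probe sets, 45 controls were left out. The other 20035 were fitted with limma 3.58.1 in R 4.3.3 (lmFit on 4 group means, eBayes without trend, 8 residual and 2.43 prior degrees of freedom), without a filter on dim probe sets. Two-sided p-values were Benjamini-Hochberg adjusted over all 20035, separately for 6 comparisons of groups and for an F-test over the wound times. The threshold was 0.05. Fitted changes were tested on simulated data. An exact permutation test of 3 against 3 arrays cannot go below p = 0.1 and was not used. The number of arrays limits the precision.

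The annotation gave 10951 probe sets a single symbol, 0 several and 9084 none. A gene was represented by its probe set with the highest mean over the 12 arrays. All 54 member symbols are in the RefSeq gene table of the axolotl. Values on each array were given for members past the threshold with at least 2-fold in any of the 6 comparisons, changes for the other members past it, and for other pathway genes the 4 per list with the smallest adjusted p, with a choice among them made after their values were seen. Per-array values of HES1 and WNT2B and ranges of DKK2 and BMPR1B were also added after seeing them. The members and lists were chosen with earlier results of these data known.

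Alternatives were a filter on dim probe sets, other scalings between arrays, array weights, a trend in eBayes, other sets of arrays in the fit, the replicate number as a block, the mean of a gene's probe sets, marker means as covariates, stricter thresholds and each array left out in turn. A fit without both uninjured replicate 3 and 14 dpi replicate 2 was added after seeing the data. These arrays had the lowest mean correlations with their own groups.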

Additional observations from a re-analysis of the deposited data

Results flagged for a closer look

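For 17 members the changes from uninjured skin at a pair of wound times differed by the test of the difference itself (limma, adjusted p under 0.05 over all probe sets), which is the direct comparison of the wound groups. They are the 17 that passed between 21 and 2 dpi (31.5%, beside 21.8% of all probe sets). For each member the pair with the largest change among those that passed is given. The change at 21 dpi exceeded that at 2 dpi by 7.04 for SFRP2, 3.43 for DKK3, 2.71 for FSTL1, 2.19 for FZD2, 2.18 for BMP1, 1.30 for FGF2, 1.24 for FGFR1, 1.05 for SFRP5, 0.98 for FGF12, 0.87 for WNT2B, 0.70 for LRP5 and 0.62 for SFRP1. It was below that at 2 dpi for BMPR2 (-1.72) and FZD6 (-0.38). The change at 14 dpi exceeded that at 2 dpi by 2.80 for SFRP4 and was below it for JAG2 (-1.17) and FZD8 (-0.69). Between 21 and 2 dpi these genes passed too, with differences of 2.02, -0.98 and -0.57. The part of cell composition in these differences was not tested. The marker means differed between the groups, so the covariate fits cannot separate it from time.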

How the results depend on the processing

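In what follows a plain number in brackets is the count over all probe sets, which moved too. The count of members at 2 dpi was 6 (1859), and it was 12 with array weights (3451), 3 with only the groups compared in the fit (961) and 2 with the muscle covariate (334). At 21 dpi it was 7 (2528), and 17 with array weights (6703) and 4 with the epidermal covariate (994). Between 14 and 2 dpi it was 10 (1510), and 6 with only the groups compared (589) and 6 with the epidermal covariate (453). Between 21 and 2 dpi it was 17 (4369), and 7 with the muscle covariate (925) and 6 with the epidermal covariate (458). It was 10 at 2-fold or more, where all probe sets were not counted. Between 21 and 14 dpi it was 0 (34), and 12 with array weights (2632). It was 1, BMP1, with the mean of all probe sets of a gene (24, over fewer features, as the probe sets of a gene were merged). It was 4 (786) in a fit without both uninjured replicate 3 and 14 dpi replicate 2, which was added after seeing the data. By the F-test it was 16 (4307), and 10 with the muscle covariate (2600), 9 with the epidermal covariate (2033) and 10 at an adjusted p under 0.01 (1841). The array weight of 21 dpi replicate 3 was 8.39, where the others were 0.359 to 1.92. The FGF2 change between 21 and 2 dpi was 1.30, and -0.017 (adjusted p = 0.99) with the epidermal covariate, which is near 0. The cause was not tested in any of these. With 1 array left out at a time the counts ran from 5 to 8 at 2 dpi, 4 to 5 at 14 dpi, 5 to 9 at 21 dpi, 8 to 10 between 14 and 2 dpi, 14 to 19 between 21 and 2 dpi, 0 to 2 between 21 and 14 dpi (2 without 14 dpi replicate 2) and 12 to 16 by the F-test. Over all probe sets they ran from 921 to 2725, 701 to 2171 and 1151 to 2948 at the 3 times. Between wounds they ran from 777 to 1745, 2738 to 4781 and 0 to 471 in the same order, and from 2719 to 5086 by the F-test.

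Same-numbered arrays did not deviate together as a rule (18 pairs, correlations -0.652 to 0.479, 5 over 0.1), and the main fit did not pair them. Marker levels also varied within groups, so these correlations cannot exclude that a male was sampled at several times. With the replicate number as a block the counts were 7, 4 and 7 at 2, 14 and 21 dpi, 10 between 14 and 2 dpi, 16 between 21 and 2 dpi, 0 between 21 and 14 dpi and 15 by the F-test. In the same order, 1451, 1023, 2043, 1098, 3797, 0 and 3339 of all probe sets were called with that block. FZD2 passed at 2 and 21 dpi, and FGF2 at 21 dpi and FGF12 between 21 and 2 dpi did not; the block changed no other call of a gene in the 6 comparisons. Many members lie near the dim end of the arrays, where a change could go unseen.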
